A study of Gallus gallus with 9 samples.

Results

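The genes described here encode the nuclear pore complex, the nuclear lamina and its membrane partners, and the receptors that carry cargo through the pore. They were found by gene symbol, with a pattern that covers NUP, POM121, TPR, lamin, LBR, EMD, TMPO, LEMD, SUN, SYNE, KPNA, KPNB1, IPO, TNPO, XPO, RANBP and RANGAP1 names. The pattern matched 49 of 24881 Ensembl genes in the tables, of which 11078 carry a symbol. Among them were 15 nucleoporins, 2 B-type lamins, 3 inner nuclear membrane proteins, 4 LINC complex genes, 7 importin alpha adaptors, 9 import receptors, 6 export receptors and 3 Ran regulators. The symbols LMNA, EMD, TMPO, RANBP1, RANBP2, SYNE1 and NUP62 are among those paired with no gene in the tables, so those genes were not analysed here. Also unpaired are NUP160, NUP188, NUP205, NUP35, NUP50, POM121, IPO4 and IPO5. The roles named below are therefore covered only in part.

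The libraries came from primary myoblasts of chicken embryo skeletal muscle, all at passage 1, with 3 libraries per group. PM cells were taken when the serial plating of freshly isolated cells had just ended. GM cells grew in medium that held 15% fetal bovine serum. DM cells had spent 4 days in differentiation medium, which held 2% horse serum. Total RNA was sequenced, and each library held 15731818 to 27110310 counted reads on Ensembl genes. Whether replicates are separate cultures or embryos is not in the labels, so p-values cover the spread among these libraries alone, which may be technical. The 3 comparisons share samples, so their fold changes are not independent of each other.

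The nuclear pore is a ring of nucleoporins set in the nuclear envelope. A Y-shaped scaffold and an inner ring hold a central channel of FG repeat proteins, and filaments reach from it into the cytoplasm and, as a basket, into the nucleus. Importin alpha binds the classical nuclear localisation signal and rides on importin beta, while other import and export receptors bind their cargo directly. Ran, kept in its GDP form in the cytoplasm by RANGAP1, gives this traffic its direction. Lamins line the inner face of the envelope, and SUN and nesprin proteins form the LINC bridge that couples the lamina to the cytoskeleton. In skeletal muscle this bridge positions the many nuclei of a myotube.

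Levels are given in FPKM (fragments scaled to gene length and to library depth), the authors' values, so that genes of different length can be set side by side. Values after ± are SDs over 3 libraries. Fold changes are log2 values from edgeR's quasi-likelihood test on the counts of all 9 libraries, and a gene was called where its p, adjusted by Benjamini-Hochberg over all 14796 genes tested, was below 0.05. The SE of a fold change is its size over the root of the quasi-likelihood F. Of the 49 members, 48 had enough reads to be tested. KPNA7, an importin alpha, was not tested, since its level stayed between 0 and 0.155 FPKM in all 9 libraries.

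Most members had their highest mean level in growth medium, and more were called lower than higher in differentiation medium. Relative to PM, 26 of 48 were higher in GM and 8 were lower, while 14 were not called. Without PM replicate 2, 25 were higher and 5 lower, against 4323 and 4609 of all 14796 genes. Among all genes tested, 66.1% were called in this comparison, 32.0% as higher and 34.1% as lower. The members' median log2 fold change was 0.25, against -0.01 for all genes. By limma on log2(FPKM + 1), a scale that moved the median of all genes up by 0.11, 31 members were higher and 4 lower. Of all 14796 genes, 5598 were higher and 4107 lower on that scale. Relative to GM, 3 members were higher in DM and 34 were lower, against 30.8% of all genes called higher, 30.3% called lower and 61.1% called in either direction. The median was -0.44 for the members and 0.00 for all genes. Relative to PM, 9 members were higher in DM and 23 were lower, against 33.5% and 32.7% of all genes, with 66.2% called in either direction. Here the medians were -0.20 and 0.02. By limma on log2(FPKM + 0.1), 14 were higher and 22 lower in DM than in PM, against 5556 and 4245 of all 14796 genes.

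The same shape showed in the FPKM levels, which come from the same libraries. For these levels no length trend was removed, and the shares of all genes were not matched to the members for length. In 25 of 48 members all 3 GM libraries lay above all 6 others, or 52.1%, against 22.0% of all genes tested. The group mean was highest in GM for 38 members (79.2%), in PM for 8 (16.7%) and in DM for 2 (4.17%). All genes tested gave 37.7%, 30.1% and 32.2%. The mean was lowest in DM for 28 members (58.3%), in PM for 19 (39.6%) and in GM for 1 (2.08%), SUN2. All genes tested gave 29.9%, 42.1% and 28%, so the share lowest in PM was near that of all genes. For 21 members the mean was highest in GM and lowest in DM, a pair not counted over all genes. Together the members took 0.532% to 0.569% of the reads in PM, 0.690% to 0.784% in GM and 0.512% to 0.542% in DM. GM replicate 3 differed from the mean of the other GM libraries by -0.80 in log2 CPM (counts scaled to library depth) for KPNA2, -0.61 for LMNB1 and -0.57 for LMNB2. Without it, 3 members were higher and 35 lower in DM than in GM, against 4633 and 4506 of all 14796 genes.

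**Figure D1:**
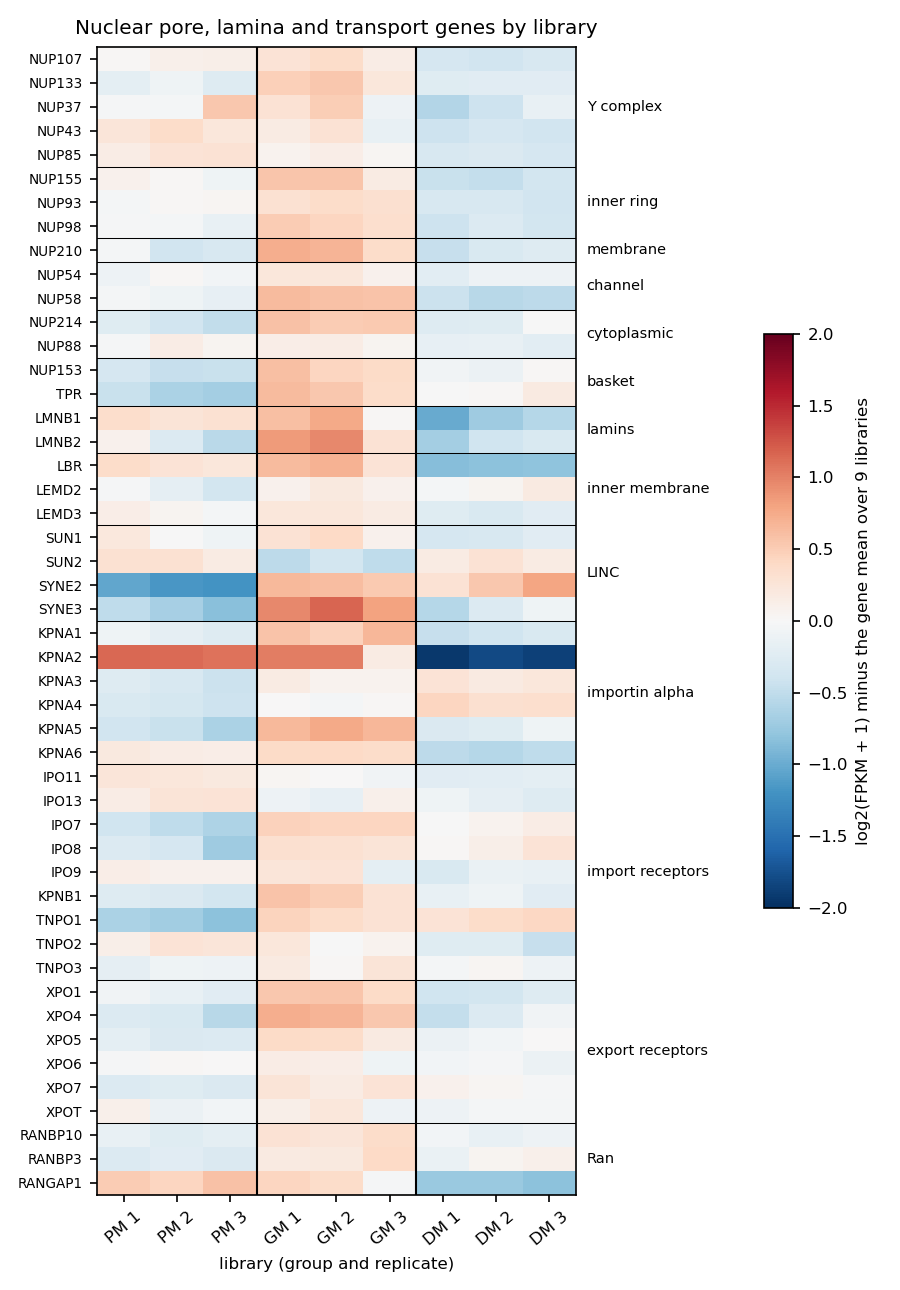
Level of each tested member by library, as log2(FPKM + 1) minus the gene's mean over the 9 libraries, from blue (below the mean) to red (above). Columns are libraries in the order PM, GM and DM and genes are grouped by role. Most genes are red in the GM columns and blue in the DM columns, while KPNA2 is red in PM and the deepest blue in DM.

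Differences from PM moved with gene length. The members were longer than the average gene, with a median listed length of 3117 bases against 1838 for all genes tested. Across 8 length bins of all genes, the median GM versus PM log2 fold change ran from -0.27 in the shortest bin to 0.52 in the longest. With this trend removed from each library, 20 members were higher and 12 lower in GM than in PM, and the members' median was 0.05. Of all 14796 genes, 4494 were then higher and 5044 lower. The DM versus GM fall moved less, with 4 members higher, 34 lower and a median of -0.39 once the trend was removed. All genes gave 4648 higher and 4436 lower there. For DM versus PM the counts became 9 higher and 29 lower, with a median of -0.32, against 4827 and 4849 of all genes. The correction used the listed length, which the FPKM of 29 of the 49 members matched. The PM tables list 25950 features while those of GM and DM list 26591, so a difference in the authors' processing cannot be told apart from the PM group itself.

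**Figure D2:**
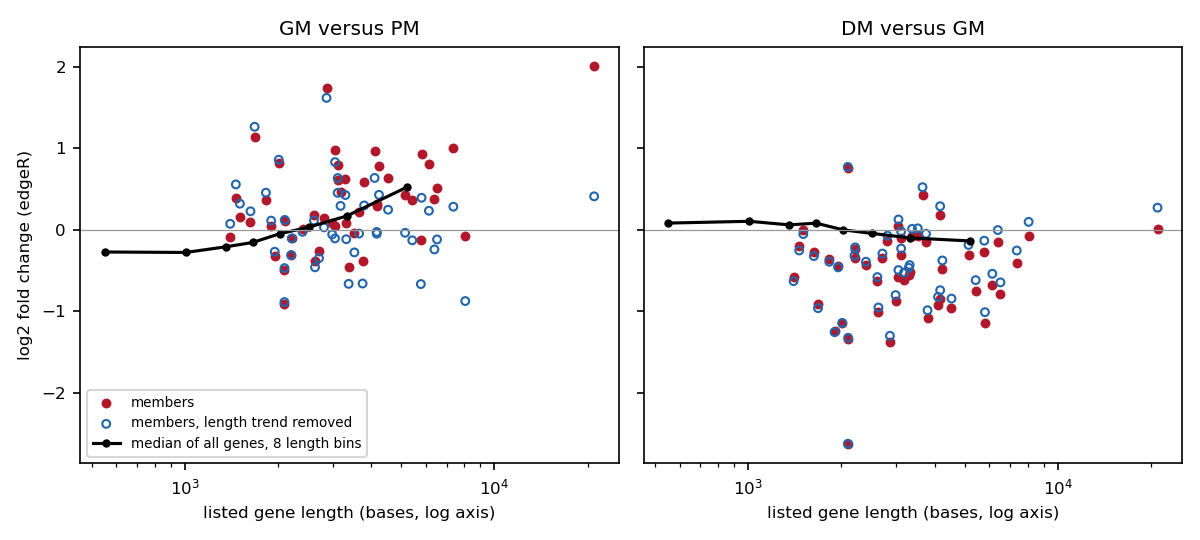
Log2 fold change of the members against listed gene length on a log axis, as fitted (filled red) and with the length trend removed (open blue). The black line is the median of all genes in 8 length bins. It climbs with length in GM versus PM, and in DM versus GM most members stay below 0 in both versions.

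RNA of cell type markers and of cell cycle genes also differed between the groups. Of all genes tested, 32.0% were higher and 34.1% lower in GM than in PM, and 30.8% and 30.3% in DM than in GM. Macrophage markers summed to 891 to 940 FPKM in PM, 120 to 271 FPKM in GM and 219 to 253 FPKM in DM, with 12 of 12 lower in GM than in PM. Fibroblast markers summed to 2406 to 2484 FPKM in PM, 1240 to 2066 FPKM in GM and 4473 to 5135 FPKM in DM. Of the 9, 8 were higher and 1 lower in DM than in GM, while 2 were higher, 3 lower and 4 not called in GM versus PM. COL1A2 weighed most in the sum, with means of 776, 650 and 2408 FPKM in PM, GM and DM. POSTN went the other way in DM, with means of 363, 232 and 68.6 FPKM. PDGFRA, FBLN1 and DPT had higher means in GM than in PM, against the sum. The 11 myoblast and myotube markers summed to 1519 to 1610 FPKM in PM, 3102 to 6177 FPKM in GM and 1904 to 1969 FPKM in DM. Of these, 7 were higher and 3 lower in GM than in PM, and 0 were higher, 5 lower and 6 not called in DM versus GM. In DM versus PM 6 were higher and 3 lower, against 33.5% and 32.7% of all genes. Lower in GM than in PM were the muscle regulators MYF5, MYOD1 and MYF6, at -0.62, -0.53 and -1.37, while MYOG (0.91) and the muscle filament gene DES (2.26) were higher. The sum of these 11 was thus higher in every GM library, labelled proliferating, than in any DM library, labelled differentiated myotube. The muscle genes MYH1E, MYH3 and TTN, also in the marker list, were not among the 11. None of the markers in these lists was at 0 in any library. All 28 cell cycle genes tested were lower in DM than in GM, and they summed to 2200 to 2249 FPKM in PM, 1113 to 1948 FPKM in GM and 364 to 423 FPKM in DM. The library of GM replicate 3 had the highest muscle sum and the lowest cell cycle and fibroblast sums of the GM group. In bulk RNA, fewer cells of a type and less RNA per cell cannot be told apart, and the part of these shifts in the results below was not tested.

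All 15 nucleoporins among the members were called lower in DM than in GM, against 30.3% of all genes tested. Their median log2 fold change was -0.58. Of pore genes outside the symbol pattern, AAAS was higher in DM than in GM (0.59), while AHCTF1, SEH1L, RAE1 and NDC1 were lower. In each of the 15 the highest DM library lay below the lowest GM library, as in 5290 of all 14796 genes tested. Between GM and PM the 15 did not move as one, with 9 (60.0%) higher and 2 (13.3%) lower in GM. All genes gave 32.0% and 34.1%. Between DM and PM, 2 (13.3%) were higher in DM and 10 (66.7%) were lower, against 33.5% and 32.7% of all genes. With the length trend removed, DM versus GM still gave 15 lower calls of 15, and DM versus PM gave 12 lower and 0 higher. Of all 14796 genes, 4436 were then lower in DM than in GM, and 4849 lower and 4827 higher in DM than in PM. The weakest of the 15 was NUP37, whose DM versus GM call was lost without DM replicate 1, DM replicate 2, GM replicate 1 or GM replicate 2, with adjusted p between 0.0614 and 0.0937 (edgeR). With no filter that call was lost as well.

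Within the Y complex, the outer scaffold of the pore, NUP133 had 20.9, 22.7 and 20.1 FPKM in PM, 33.9, 35.3 and 28.2 FPKM in GM and 20.2, 20.4 and 20.5 FPKM in DM. All 3 GM libraries stood above the other 6, and PM and DM overlapped. It was higher in GM than in PM by 0.47 ± 0.08 (SE) on the log2 scale and lower in DM than in GM by a log2 fold change of -0.61, with edgeR adjusted p of 0.000497 and 7.36e-05. Removing the length trend gave 0.29 for GM versus PM, still called. NUP43 followed another course, with 28.3, 31.0 and 27.8 FPKM in PM, 26.8, 29.3 and 21.3 FPKM in GM and 17.6, 18.7 and 17.9 FPKM in DM. Its DM versus PM log2 fold change was -0.77, the largest of the Y complex. NUP85 was the most abundant Y complex gene, with means of 90.9 ± 4.87 FPKM in PM, 81.6 ± 2.70 FPKM in GM and 61.8 ± 1.05 FPKM in DM, and it was called lower at both steps. NUP43 was also called lower in GM than in PM, but without PM replicate 2 that call was lost (adjusted p = 0.0671, edgeR). It was lost as well in the 2-group fit and by limma on FPKM with either pseudocount. NUP107 and NUP37 were called lower in DM than in either other group, and neither was called between GM and PM. NUP37's DM versus PM call was lost without DM replicate 1 (adjusted p = 0.0519, edgeR).

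The inner ring and linker genes NUP155, NUP93 and NUP98 were called lower in DM than in both other groups, with a median of -0.75 against GM. NUP98, which also carries FG repeats that dock transport receptors, had 32.6, 32.4 and 30.0 FPKM in PM, 47.8, 45.3 and 42.4 FPKM in GM and 24.7, 27.3 and 25.5 FPKM in DM. NUP155, a Z-linked scaffold gene that bridges the inner ring and the outer parts of the pore, had 24.3, 23.2 and 21.3 FPKM in PM, 33.9, 33.7 and 25.6 FPKM in GM and 16.4, 16.0 and 17.4 FPKM in DM. None of the 3 groups overlapped for either gene. Their DM versus GM log2 fold changes were -0.75 ± 0.07 and -0.85 ± 0.09 (SE), with edgeR adjusted p of 2.49e-06 and 1.53e-05. NUP93 gave -0.63. The smaller rises of this trio in GM over PM, from 0.18 to 0.36, were called in none with the length trend removed, and NUP155 and NUP98 then changed sign, with -0.05 and -0.13. The NUP155 rise was also lost without GM replicate 1, GM replicate 2 or PM replicate 3, and the NUP93 rise without PM replicate 1 or PM replicate 2. With no filter the NUP93 rise was lost as well.

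The central channel gene NUP58 encodes an FG nucleoporin that lines the channel. It had 20.9, 20.3 and 19.2 FPKM in PM, 34.0, 33.2 and 32.7 FPKM in GM and 15.9, 14.4 and 14.8 FPKM in DM, so the 3 groups were fully apart. The DM versus GM log2 fold change was -1.09 ± 0.07 (SE, edgeR adjusted p = 2.75e-07), a level 2.13-fold lower in DM. Its partner NUP54 moved far less, with means of 26.1 ± 1.20, 30.7 ± 1.69 and 24.4 ± 1.10 FPKM in PM, GM and DM and a DM versus GM log2 fold change of -0.28. NUP54's DM versus PM call, at an adjusted p of 0.0451 (edgeR), was lost without any 1 of the DM libraries, PM replicate 2 or PM replicate 3. It was also lost with the length trend removed, no filter, a minimum of 5 FPKM, a replicate block or limma on FPKM.

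NUP210 is the only pore membrane protein among the members, and in mouse it is known to be needed for myoblast differentiation. Here it was low throughout, with 3.05, 2.18 and 2.33 FPKM in PM, 5.90, 5.66 and 4.40 FPKM in GM and 2.03, 2.38 and 2.50 FPKM in DM. The GM libraries lay above the other 6, and PM and DM overlapped. GM exceeded PM by a log2 fold change of 0.93 ± 0.14 and DM fell below GM by -1.15 ± 0.14 (SE), with edgeR adjusted p of 0.000163 and 3.71e-05. With the length trend removed the GM versus PM value was 0.39 (adjusted p = 0.0215). DM versus PM, -0.22 and not called as fitted, was then -0.62 and called lower (adjusted p = 0.00172, edgeR).

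On the cytoplasmic face, NUP214, which binds the export receptor XPO1, had 15.4, 13.8 and 12.7 FPKM in PM, 28.0, 26.3 and 26.8 FPKM in GM and 15.2, 15.3 and 18.2 FPKM in DM. It was 0.81 higher in GM than in PM and -0.68 in DM versus GM on the log2 scale, with GM above the other 6 libraries. Removing the length trend gave 0.23 for GM versus PM (adjusted p = 0.0108), and DM versus PM was -0.31 (adjusted p = 0.00186, edgeR), called lower, against 0.13 and no call as fitted. Its partner NUP88 moved little, with 50.1, 56.6 and 52.8 FPKM in PM, 55.9, 56.3 and 52.8 FPKM in GM and 45.0, 45.6 and 43.6 FPKM in DM. The DM libraries were the lowest of the 9 for NUP88, with log2 fold changes of -0.24 against GM and -0.34 against PM.

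The basket genes were the nucleoporins among the members that stayed higher in DM than in PM. TPR, the coiled-coil protein that forms the basket's filaments, had 18.9, 16.5 and 15.8 FPKM in PM, 41.1, 38.5 and 34.0 FPKM in GM and 25.9, 26.5 and 29.7 FPKM in DM. NUP153, which anchors the basket to the ring and to the lamina, had 17.4, 15.7 and 16.0 FPKM in PM, 34.0, 30.1 and 29.0 FPKM in GM and 21.1, 20.3 and 22.5 FPKM in DM. For both genes the 3 groups were fully separate, with DM in the middle. The DM versus PM log2 fold changes were 0.59 ± 0.09 for TPR and 0.29 ± 0.08 for NUP153 (SE), with edgeR adjusted p of 9.66e-05 and 0.00521. With the length trend removed they were 0.02 and 0.05 and neither was called. The falls in DM versus GM, -0.41 for TPR and -0.48 for NUP153, were called either way.

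**Figure D3:**
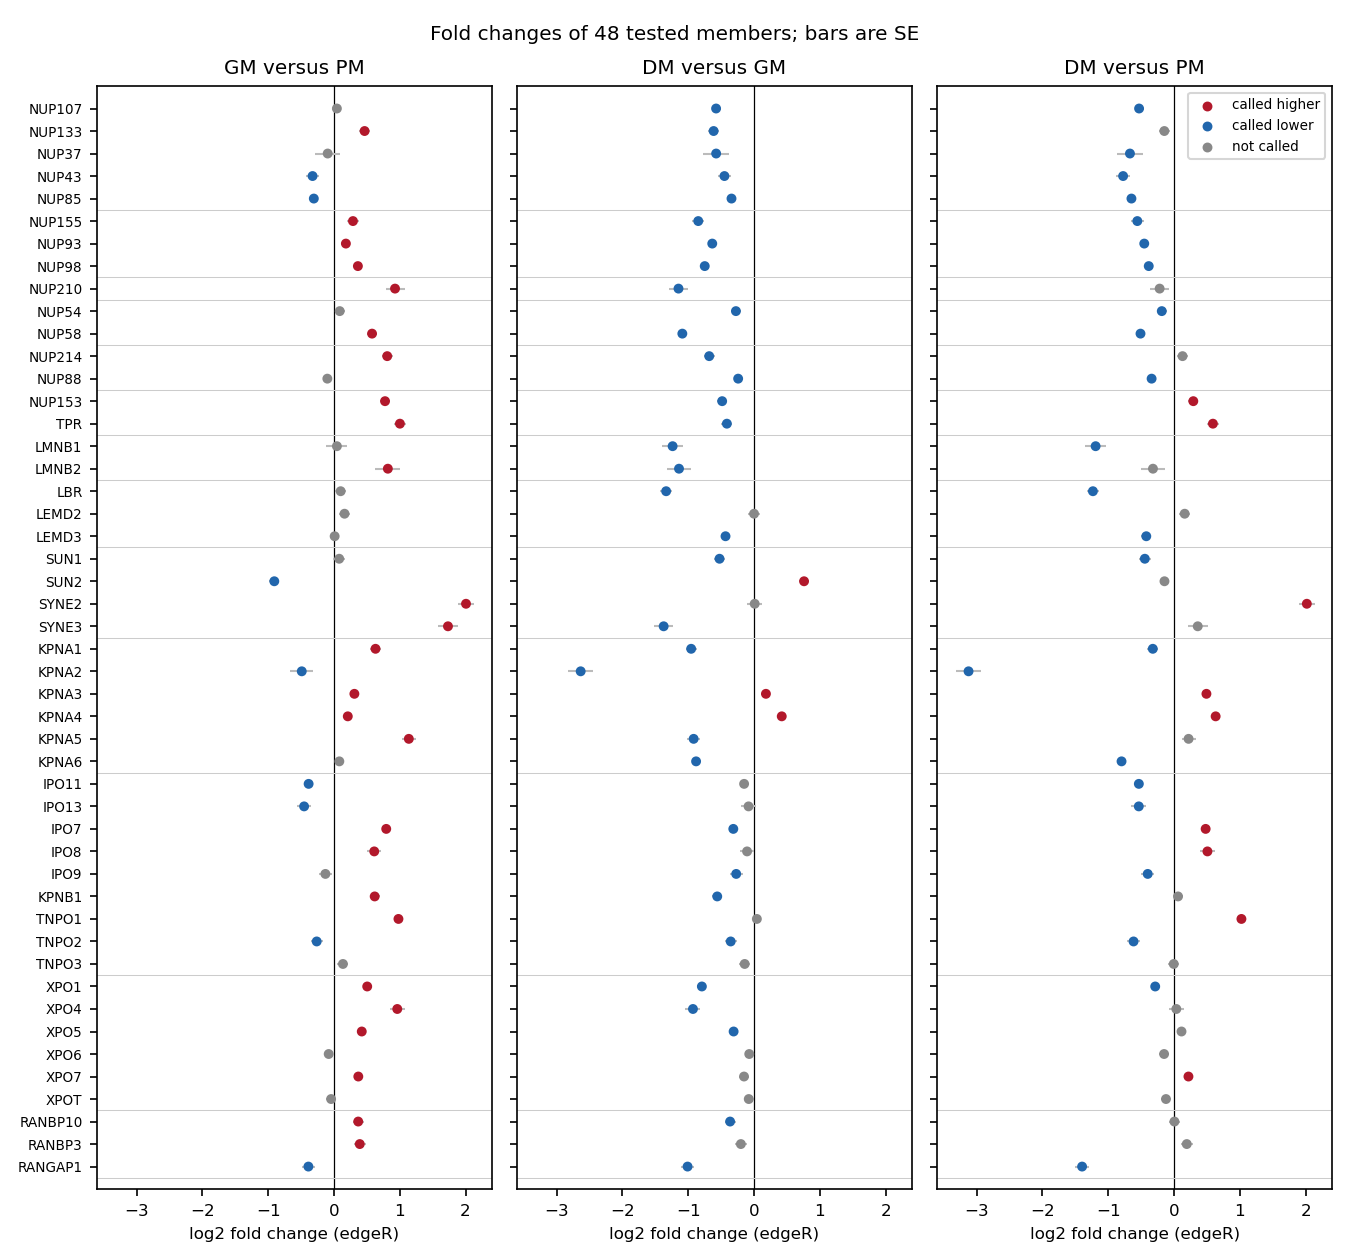
Log2 fold change of each tested member in the 3 comparisons, with SE bars and genes grouped by role from the Y complex at the top to the Ran regulators at the bottom. Red points were called higher, blue points lower, and grey points were not called. All 15 nucleoporins at the top are blue in DM versus GM, and KPNA2 lies farthest left in both DM panels.

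Both B-type lamins, the farnesylated filament proteins found in nearly all cells, were lower in DM than in GM. LMNB1 lies on chromosome Z at 56212816 to 56235773 and LMNB2 on chromosome 28 at 623375 to 649206, as the files list them in a genome build not given in the sources used here. LMNB1 had 34.6, 32.4 and 33.4 FPKM in PM, 41.6, 46.1 and 27.5 FPKM in GM and 13.0, 16.1 and 17.8 FPKM in DM. GM replicate 3 lay below the PM libraries and all 3 DM libraries lay below every other library. The DM versus GM log2 fold change was -1.24 ± 0.16 and the DM versus PM value -1.19 ± 0.16 (SE), with edgeR adjusted p of 7.69e-05 and 8.67e-05.

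LMNB2 was the more abundant lamin and the one that rose in growth medium. It had 78.5, 60.9 and 50.5 FPKM in PM, 135, 146 and 91.0 FPKM in GM and 46.0, 56.2 and 59.6 FPKM in DM. GM stood above the other 6 libraries, and DM overlapped PM. The log2 fold changes were 0.82 ± 0.19 for GM versus PM and -1.14 ± 0.19 for DM versus GM (SE), with edgeR adjusted p of 0.00363 and 0.000578. LMNB2 made up 65.0 ± 4.59% of the FPKM of both lamins in PM, 76.4 ± 0.42% in GM and 77.6 ± 0.53% in DM. The lowest GM or DM library, at 76.0%, lay above the highest PM library, at 69.4%. For such shares no test was run, since 3 libraries against 3 cannot give an exact two-sided permutation p below 0.1.

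LBR, the lamin B receptor, is an inner nuclear membrane protein that tethers heterochromatin and also acts in sterol synthesis. It had 69.0, 64.8 and 62.8 FPKM in PM, 82.9, 86.6 and 64.7 FPKM in GM and 29.1, 29.8 and 30.1 FPKM in DM. PM and GM overlapped through GM replicate 3, and without that library the GM versus PM call was made, with 0.20 and an adjusted p of 0.00963. All 3 DM libraries were below 31 FPKM, less than any library of the other groups. DM was lower than GM by a log2 fold change of -1.34 ± 0.09 and lower than PM by -1.23 ± 0.09 (SE), with edgeR adjusted p of 3.37e-07 and 4.92e-07.

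The LEM domain proteins, which bind the chromatin factor BANF1, moved less. LEMD3, also an inhibitor of SMAD signalling, averaged 19.3 ± 1.22 FPKM in PM, 21.5 ± 0.53 FPKM in GM and 15.3 ± 0.50 FPKM in DM. Its DM versus GM log2 fold change was -0.43 ± 0.07 (SE, edgeR adjusted p = 0.000327). LEMD2 averaged 43.0 ± 5.15, 53.3 ± 2.64 and 51.2 ± 3.81 FPKM in PM, GM and DM and was called in no comparison. Its call was made in some alternatives in both comparisons with PM, among them the one without PM replicate 1 and the one with the length trend removed.

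The 4 LINC complex genes each took a different course. SUN2, an inner membrane protein that binds nesprins in the space between the membranes, was the only member whose mean was lowest in GM. It had 31.8, 31.8 and 28.7 FPKM in PM, 17.5, 19.5 and 17.6 FPKM in GM and 28.7, 31.5 and 28.5 FPKM in DM. All 3 GM libraries lay below the other 6, while PM and DM overlapped. The log2 fold changes were -0.91 ± 0.08 for GM versus PM and 0.76 ± 0.08 for DM versus GM (SE), with edgeR adjusted p of 1.84e-06 and 6.23e-06.

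SUN1, its homolog, had 27.7, 23.6 and 22.4 FPKM in PM, 29.2, 31.7 and 25.4 FPKM in GM and 18.7, 18.8 and 20.1 FPKM in DM. It was called lower in DM, by log2 fold changes of -0.52 against GM and -0.44 against PM, and not between GM and PM. SUN1 therefore held 44.3 ± 1.99% of the FPKM of both SUN genes in PM, 61.2 ± 1.82% in GM and 39.4 ± 1.97% in DM. The GM libraries, at 59.1% to 62.5%, were apart from the others, which reached at most 46.5%.

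SYNE2 encodes the giant nesprin-2, which links SUN proteins to actin. It had 2.23, 1.97 and 1.91 FPKM in PM, 9.41, 9.23 and 8.56 FPKM in GM and 7.14, 8.68 and 10.5 FPKM in DM. PM stood far below both other groups, which overlapped and were not called apart (0.01, or 0.27 and called with the length trend removed). The log2 fold changes over PM were 2.01 ± 0.12 in GM and 2.02 ± 0.12 in DM (SE), with edgeR adjusted p of 1.99e-07 and 1.05e-07. SYNE2 has the longest listed length of the members, 20980 bases, and with the length trend removed the values were 0.41 and 0.68, both still called (adjusted p = 0.000382 and 7.66e-06). SYNE2 falls in the longest of the 8 bins but lies far above that bin's median length of 5210 bases.

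SYNE3, the smaller nesprin-3 that binds plectin, was highest in GM. It had 4.50, 3.91 and 3.36 FPKM in PM, 14.2, 16.4 and 12.7 FPKM in GM and 4.23, 5.47 and 6.35 FPKM in DM. GM was 3.32-fold above PM, a log2 fold change of 1.73 ± 0.15, and DM was below GM by -1.37 ± 0.15 (SE), with edgeR adjusted p of 2.59e-06 and 1.20e-05. With the length trend removed these were 1.62 and -1.30. DM versus PM was 0.36 and not called (adjusted p = 0.0583, edgeR). It was called higher in 7 alternatives, at 0.36 to 0.50, among them DESeq2, the 2-group fit and the fits without DM replicate 1 or PM replicate 1. Of the FPKM of the 2 nesprins, SYNE2 held 34.3 ± 1.72% in PM, 38.7 ± 2.33% in GM and 62.2 ± 0.76% in DM. DM stood apart from both other groups in this share. The share was not corrected for the length trend, and the listed lengths are 20980 bases for SYNE2 and 2868 for SYNE3. With the trend removed, DM versus PM was 0.68 for SYNE2 and 0.31 for SYNE3, against 2.02 and 0.36 as fitted. GM versus PM was then 0.41 and 1.62, against 2.01 and 1.73 as fitted. DM versus GM was 0.27 and -1.30, against 0.01 and -1.37.

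**Figure D4:**
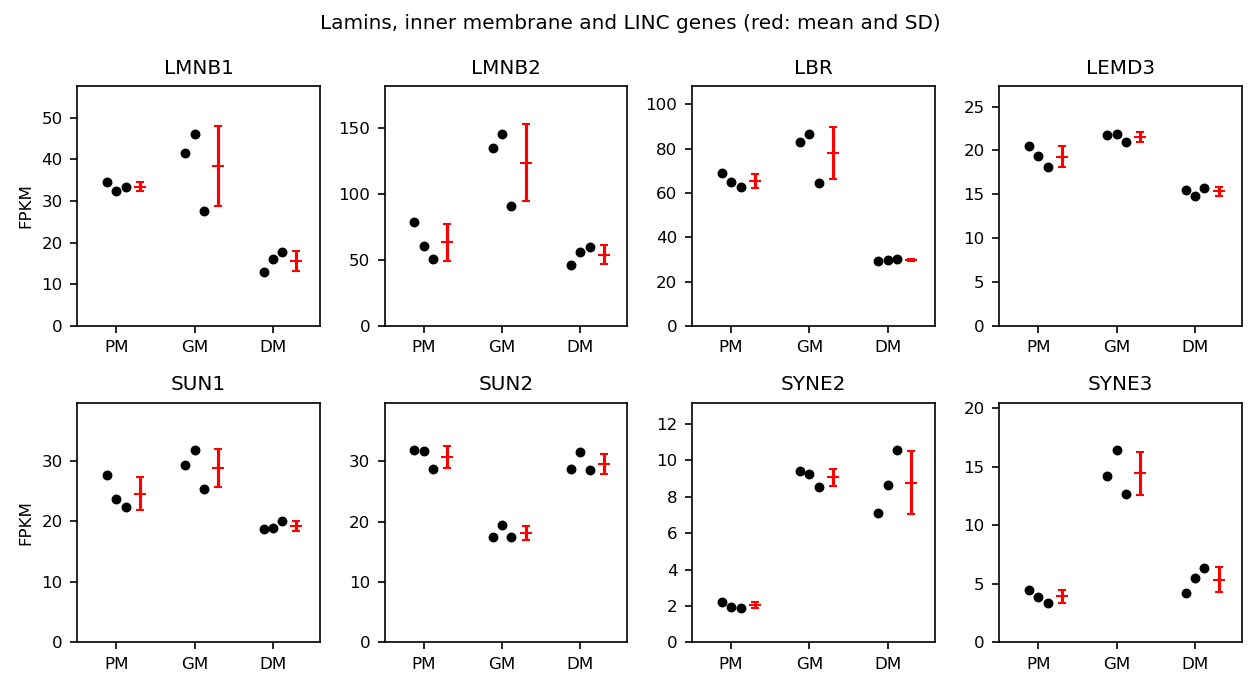
FPKM of 8 envelope genes by library (black points), with the mean and SD of each group in red. LMNB1 and LBR are lowest in DM, SUN2 is lowest in GM, SYNE3 is highest in GM, and SYNE2 is low in PM alone. GM replicate 3, the rightmost GM point, is the lowest of its group for LMNB1, LMNB2 and LBR.

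KPNA2, an importin alpha that in mouse embryonic stem cells imports OCT4, had the largest fall of all members. It lies on the minus strand of chromosome 18 at 7053034 to 7058678, in the files' coordinates. It had 231, 227 and 220 FPKM in PM, 210, 212 and 116 FPKM in GM and 26.4, 28.9 and 27.5 FPKM in DM. DM was 6.21-fold below GM and 8.72-fold below PM, with log2 fold changes of -2.63 ± 0.19 and -3.12 ± 0.19 (SE) and edgeR adjusted p of 2.15e-06 and 6.50e-07. Every DM library lay below every library of the other groups. The smaller GM versus PM difference of -0.49 ± 0.18 had an adjusted p of 0.0330 (edgeR). Its size rested in part on GM replicate 3, without which it was -0.27 and still called (adjusted p = 0.00148, edgeR). Without PM replicate 1, PM replicate 2 or PM replicate 3 that call was lost, with adjusted p of 0.0820, 0.0712 and 0.0733. It was also lost with no filter, in the 2-group fit and by limma on FPKM with either pseudocount.

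KPNA4 and KPNA3, close homologs of each other, were the members whose mean was highest in DM. KPNA4 had 97.2, 93.5 and 90.0 FPKM in PM, 120, 117 and 122 FPKM in GM and 161, 150 and 151 FPKM in DM. The groups were fully apart, and the log2 fold changes were 0.42 ± 0.07 for DM versus GM and 0.63 ± 0.07 for DM versus PM (SE), with edgeR adjusted p of 0.000203 and 7.73e-06. KPNA3 had 21.6, 20.6 and 19.1 FPKM in PM, 29.4, 27.3 and 27.4 FPKM in GM and 31.5, 29.5 and 30.7 FPKM in DM. It was called higher in DM than in PM at 0.49, while its DM versus GM call (0.18, adjusted p = 0.0369) was lost without GM replicate 2, DM replicate 1 or DM replicate 3. The latter call was also lost with DESeq2, with its size factors, in the 2-group fit and by limma on FPKM. The rises of both genes in GM over PM were small, 0.21 and 0.31, and were not called with the length trend removed, where their signs turned.

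The other tested importin alphas were lower in DM than in GM. KPNA5 had 7.60, 7.24 and 6.24 FPKM in PM, 16.6, 18.0 and 16.8 FPKM in GM and 8.15, 8.45 and 9.52 FPKM in DM. Its GM versus PM log2 fold change of 1.14 ± 0.10 (SE, edgeR adjusted p = 3.48e-06) was the largest rise of an importin alpha, and DM was lower than GM by -0.92. KPNA1 averaged 16.3 ± 1.09 FPKM in PM, 27.9 ± 1.99 FPKM in GM and 13.8 ± 0.84 FPKM in DM, with DM versus GM at -0.96. KPNA6 averaged 50.4 ± 1.21, 59.1 ± 0.65 and 30.9 ± 0.71 FPKM in PM, GM and DM, with DM versus GM at -0.88. Against PM, KPNA1 (-0.32) and KPNA6 (-0.80) were called lower in DM, while KPNA5 was at 0.22 and not called. In 4 alternatives KPNA5 was called higher in DM than in PM, at 0.28 to 0.31, among them the one with the length trend removed. Of the 6 tested adaptors, 4 were higher and 1 lower in GM than in PM, and 2 were higher and 4 lower in DM than in GM. These are 66.7% and 16.7%, against 32.0% and 34.1% of all genes, and 33.3% and 66.7%, against 30.8% and 30.3%.

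The mix of adaptors differed between the groups, while their sum was lowest in DM and overlapped between PM and GM. KPNA2 held 54.6 ± 0.46% of the summed importin alpha FPKM in PM, 40.9 ± 8.28% in GM and 10.4 ± 0.67% in DM. KPNA4 held 22.6 ± 0.16% in PM, 28.1 ± 4.14% in GM and 58.0 ± 1.22% in DM. Within GM, the KPNA2 share was 31.3% for replicate 3, against 45.3% and 46.0% in the other libraries. The sum itself was 414 ± 13.1 FPKM in PM, 431 ± 52.6 FPKM in GM and 266 ± 5.36 FPKM in DM. No test was run on these shares or on the sum. In both shares the DM libraries lay apart from the other 6.

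**Figure D5:**
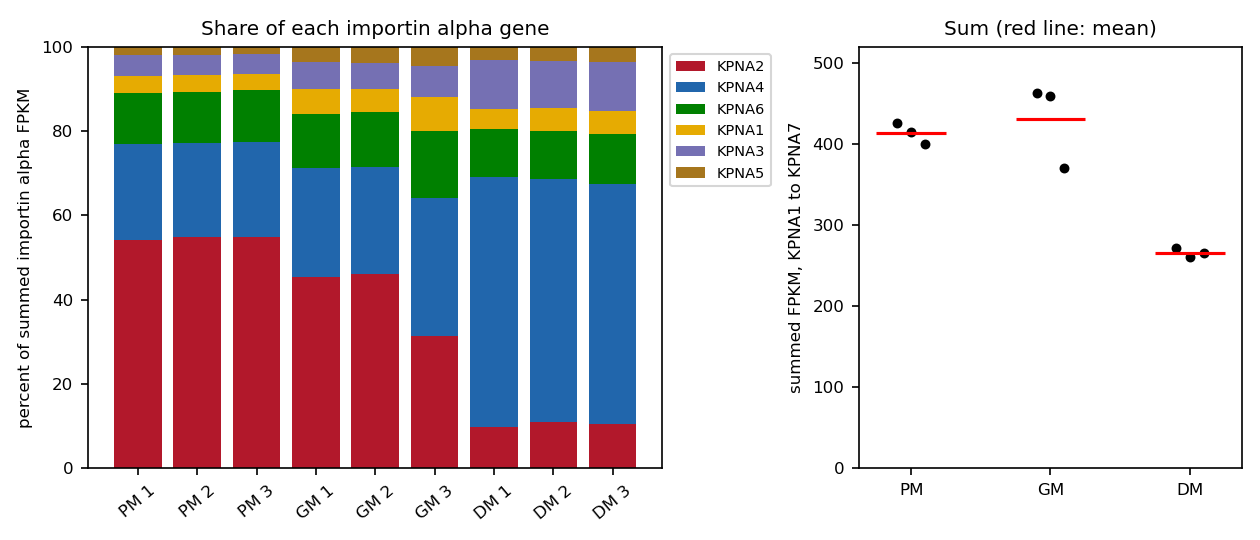
Left, the share of each importin alpha gene in the summed importin alpha FPKM of each library, in percent. Right, that sum by library (points) with the group mean (red line). KPNA2 takes 54.1% to 55.0% in PM and 9.73% to 11.1% in DM, where KPNA4 takes 57.1% to 59.4%, and the sum is lowest in DM.

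The importin beta family binds cargo or adaptors and Ran. Of its 15 import and export receptors, 8 were higher and 3 lower in GM than in PM, 0 were higher and 7 lower in DM than in GM, and 4 were higher and 5 lower in DM than in PM. The DM versus PM shares, 26.7% and 33.3%, lay near the 33.5% and 32.7% of all genes. For GM versus PM they were 53.3% and 20.0%, against 32.0% and 34.1% of all genes. For DM versus GM they were 0.00% and 46.7%, against 30.8% and 30.3%. KPNB1, importin beta itself and the partner of the importin alphas, had 76.1, 74.3 and 70.6 FPKM in PM, 136, 129 and 111 FPKM in GM and 82.3, 85.2 and 77.8 FPKM in DM. The GM libraries stood above the rest, with log2 fold changes of 0.62 ± 0.08 for GM versus PM and -0.56 ± 0.08 for DM versus GM (SE), and edgeR adjusted p of 2.60e-05 and 6.38e-05. The DM versus PM value of 0.06 was not called.

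TNPO1, transportin, which imports RNA-binding proteins with a PY signal, kept its GM level in DM. It had 16.5, 15.8 and 14.4 FPKM in PM, 35.9, 34.1 and 32.0 FPKM in GM and 31.8, 34.1 and 35.2 FPKM in DM. Both GM and DM were fully above PM and overlapped each other. The log2 fold changes over PM were 0.98 ± 0.07 in GM and 1.02 ± 0.07 in DM (SE), with edgeR adjusted p of 6.92e-07 and 3.47e-07, and 0.83 and 0.95 with the length trend removed. Its homolog TNPO2 averaged 111 ± 6.07, 102 ± 8.77 and 76.8 ± 6.53 FPKM in PM, GM and DM, with DM versus GM at -0.35 and DM versus PM at -0.62. TNPO1 made up 9.39 ± 0.92% of the FPKM of TNPO1, TNPO2 and TNPO3 in PM, 18.4 ± 1.18% in GM and 22.1 ± 1.93% in DM. TNPO3, which imports SR splicing factors, was called in no comparison, though without GM replicate 2 it was in both comparisons with GM. TNPO2's GM versus PM call (-0.26, adjusted p = 0.0253) was lost without GM replicate 2, PM replicate 2 or PM replicate 3. It was also lost with a minimum of 5 FPKM, in the 2-group fit and by limma on FPKM with either pseudocount.

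IPO7, an import receptor for ribosomal proteins and histones among other cargo, was the most abundant member in GM and DM. It averaged 144 ± 11.1 FPKM in PM, 276 ± 3.29 FPKM in GM and 213 ± 11.8 FPKM in DM, with log2 fold changes of 0.79 for GM versus PM, -0.31 for DM versus GM and 0.48 for DM versus PM. IPO8, its homolog, held 9.80 ± 0.94% of the FPKM of both genes in PM, 8.77 ± 0.15% in GM and 9.99 ± 0.34% in DM. It was higher than in PM in both GM (0.61) and DM (0.51). IPO11 and IPO13 ran the other way, lower than in PM at -0.39 and -0.45 in GM and -0.54 in both cases in DM. Neither IPO11 nor IPO13 was called between DM and GM, though IPO11 was without GM replicate 3 (-0.17, adjusted p = 0.0490). IPO9 was called lower in DM than in GM (-0.27, adjusted p = 0.0355), and that call was lost when any 1 of GM replicates 1 and 2 or the 3 DM libraries was left out, and with the length trend removed (-0.14). It was lost as well in the 2-group fit and with a replicate block. Under the length correction IPO9 was called lower in GM than in PM (-0.67, as fitted -0.13 and not called), and IPO11 gave -0.66 there.

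LMNB1, NUP155, TNPO1 and IPO11 are Z-linked. Reads on the W chromosome, which in birds only females carry, made up 158 to 173 CPM in PM, 371 to 396 CPM in GM and 400 to 425 CPM in DM. Their part in the comparisons of these 4 genes with PM was not tested.

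Among export receptors, XPO1, which carries proteins with a leucine-rich export signal, had 54.3, 51.2 and 48.9 FPKM in PM, 83.8, 84.7 and 74.5 FPKM in GM and 42.9, 44.3 and 47.6 FPKM in DM. The groups were fully apart, and DM versus GM was -0.79 ± 0.07 (SE, edgeR adjusted p = 1.92e-06). XPO4 had 8.37, 8.15 and 6.67 FPKM in PM, 17.7, 17.0 and 15.4 FPKM in GM and 7.15, 8.38 and 9.75 FPKM in DM. Its GM libraries were above the other 6, with 0.96 ± 0.11 for GM versus PM and -0.93 ± 0.11 for DM versus GM (SE), and edgeR adjusted p of 2.19e-05 and 3.10e-05. The GM versus PM value was 0.63 with the length trend removed. XPO5, the exporter of precursor microRNAs, gave 0.42 and -0.31 in the same comparisons. XPO7 was higher in GM (0.37) and in DM (0.22) than in PM, the DM call being lost without DM replicate 1 (adjusted p = 0.0585). XPO6, which exports actin, and XPOT, which exports tRNA, were called in no comparison as fitted. With the length trend removed both were called lower than in PM, XPO6 at -0.88 in GM and -0.78 in DM, and XPOT at -0.28 in GM and -0.26 in DM. That correction used listed lengths of 8045 bases for XPO6 and 3528 for XPOT, while their FPKM implied 5557 and 1956. The part of this gap in those calls was not tested. Under the same correction the GM versus PM values of XPO1 and XPO5 were -0.12 and -0.04, neither called, and XPO7 became -0.24 and was called lower. The DM versus PM value of XPO7 was then -0.25, also called lower.

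RANGAP1, which makes Ran hydrolyse its GTP at the cytoplasmic face, fell at both steps. It had 57.7, 54.5 and 61.0 FPKM in PM, 54.7, 52.5 and 39.9 FPKM in GM and 23.7, 23.8 and 22.5 FPKM in DM. The DM libraries lay far below the rest, and GM overlapped PM. DM was lower than GM by -1.01 ± 0.10 and lower than PM by -1.40 ± 0.10 (SE), with edgeR adjusted p of 6.69e-06 and 5.03e-07. The GM versus PM value was -0.39 (adjusted p = 0.00483) and was not called by limma on FPKM. RANBP3, a cofactor of XPO1, had 30.5, 31.5 and 30.1 FPKM in PM, 42.1, 42.8 and 49.0 FPKM in GM and 33.7, 38.8 and 39.9 FPKM in DM, and was higher in GM than in PM by 0.39. DM lay between the other groups and was called against neither as fitted. Once the length trend was removed RANBP3 was called in both, at -0.26 in DM versus GM and 0.30 in DM versus PM. RANBP10 gave 0.37 for GM versus PM and -0.36 for DM versus GM.

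Other transport and envelope genes lie outside the symbol pattern. Of 33 tested, 8 were higher and 14 lower in GM than in PM, 6 were higher and 19 lower in DM than in GM, and 4 were higher and 23 lower in DM than in PM. The GM versus PM shares, 24.2% higher and 42.4% lower, compare with 32.0% and 34.1% of all genes. For DM versus GM they were 18.2% and 57.6%, against 30.8% and 30.3%, and for DM versus PM 12.1% and 69.7%, against 33.5% and 32.7%. Their medians were -0.17, -0.33 and -0.40. RAN had 408, 416 and 432 FPKM in PM, 407, 431 and 373 FPKM in GM and 273, 282 and 273 FPKM in DM, with log2 fold changes of -0.49 for DM versus GM and -0.69 for DM versus PM. RCC1, the chromatin-bound exchange factor that loads Ran with GTP, gave -1.20 and -1.13 in the same comparisons, and CSE1L, the exporter that returns importin alpha to the cytoplasm, gave -0.73 and -0.56. Neither RCC1 nor CSE1L was called between GM and PM, where RAN was -0.20.

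Of these genes, the largest rises in GM over PM were those of MLIP, a lamin-interacting protein of muscle, at 3.51, TMEM201 at 1.72 and MCM3AP at 1.10. MLIP was scarce, with 0.160, 0.276 and 0.342 FPKM in PM, 2.58, 2.06 and 5.39 FPKM in GM and 1.15, 1.03 and 0.398 FPKM in DM. The largest falls in GM were those of ENY2 at -1.34, BANF1, the chromatin protein that LEM domains bind, at -1.06 and LRRC59 at -0.89. In DM versus GM, ENY2 (0.72), TOR1AIP2 (0.68) and the nucleoporin AAAS (0.59) rose most, and MLIP (-1.91), TMEM201 (-1.55) and RCC1 fell most. In DM versus PM the largest rises were those of MLIP (1.61), ANKLE2 (0.54) and MCM3AP (0.52), and the largest falls those of the pore membrane gene NDC1 (-1.37), RCC1 and BANF1 (-0.82). BANF1 remained abundant, with 1169, 1208 and 1200 FPKM in PM, 598, 540 and 752 FPKM in GM and 840, 676 and 640 FPKM in DM.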

How the data were processed

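Total RNA from 9 libraries (PM, GM and DM, 3 each) was sequenced. HISAT and HTSeq are named in the submitters' processing notes. Versions, genome build, annotation and strand setting were not given in the sources used here. Reads of overlapping or antisense genes, and of close homologs such as KPNA3 and KPNA4, may therefore be mixed. Per the file headers, each deposited table lists a length, a raw count of reads and an FPKM per gene. The FPKM values are those the authors deposited, and 29 of the 49 members used the listed length (tolerance 0.5%). The other 20 used another length, while the length correction took the listed length for all genes.

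Features that carry no Ensembl identifier were not used (1069 in PM tables, 1710 in GM and DM tables, 1.58% to 2.12% of reads), nor were 2 broken lines in each GM and DM table. The listed symbol, chromosome, strand, position or length differed from that of PM replicate 1 in at most 6 genes of any library. Members were found by the symbols listed for PM replicate 1.

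edgeR 4.0.16 (R 4.3.3) was used for the main test, a quasi-likelihood fit of all 9 libraries with no block, after filterByExpr and TMM scaling. This main fit was also run on simulated counts in which few genes changed and no length trend was set. Those settings differ from these data, so that run does not show how well the fit does here. The alternatives were not run on simulated counts. Alternatives used DESeq2 1.42.0 and its size factors, limma 3.58.1 on log2(FPKM + 1) and log2(FPKM + 0.1), no filter, a minimum of 5 FPKM in 3 libraries, a lowess length correction (span 0.3), a replicate block, 2-group fits and leaving out each library. Within groups no library duplicated another (chi-square of their counts at least 5.83 per gene), so all were kept.

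The members and lists were chosen with earlier results of these data known. Values by library are given for a fixed set of envelope, pore and transport genes and, in each role and comparison, for the called member with the largest absolute fold change and at least 5 FPKM. Of other genes, the 3 largest called changes per direction and comparison of a transport list are named, with RAN, RCC1 and CSE1L. Libraries held 15731818 reads or more on Ensembl genes, and the 3 libraries per group limit the precision.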

Additional observations from a re-analysis of the deposited data

How the results depend on the processing

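Of the calls among members, 22 of 34 for GM versus PM, 34 of 37 for DM versus GM and 27 of 32 for DM versus PM were kept, with their direction, under every one of the 16 alternatives run on that comparison. The share of the calls of all genes that was kept was not counted, so these counts have no background. Removing the gene length trend, alone and with a replicate block, moved the members' median for GM versus PM to 0.049 and 0.063, and for DM versus PM to -0.319 and -0.319. The correction turned the sign of 21 of 144 values, 11 of them called in neither fit and 10 called in at least 1. For GM versus PM, without and with the block, the 10 were KPNA3 (-0.029 and -0.030), KPNA4 (-0.049 and -0.049), NUP155 (-0.050 and -0.056), NUP98 (-0.131 and -0.132), XPO1 (-0.120 and -0.121), XPO5 (-0.039 and -0.040) and XPO7 (-0.243 and -0.243). For DM versus PM they were NUP214 (-0.311 and -0.312), XPO5 (-0.227 and -0.227) and XPO7 (-0.249 and -0.249). Of these genes, KPNA4, NUP98, XPO5 and XPO7 had FPKM values that used a length other than the listed one that the correction took. The cause of the turned signs was not tested, and such turns were not counted over all genes.

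On log2(FPKM + 1) and log2(FPKM + 0.1), limma gave a GM versus PM median of 0.384 and 0.392, 31 members higher and 4 lower by either pseudocount, and a DM versus PM median of -0.089 and -0.105. By the second, 14 members were higher and 22 lower in DM than in PM, against 5556 and 4245 of all 14796 genes. For GM versus PM all genes gave 5598 higher and 4107 lower by the first and 5651 and 4100 by the second. The FPKM scale moved the median of all genes in GM versus PM up by 0.11 and 0.14. A minimum of 5 FPKM gave a DM versus PM median of -0.128 with 14 members higher, against 3798 of all 10467 genes then tested. Fitting the 2 groups alone left 5 members lower in GM than in PM, against 4482 of all 14796 genes. Leaving out single libraries gave 5 to 8 such members, the fewest without PM replicate 2.

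Deviations of same-numbered libraries from their group means correlated between -0.107 and 0.101, and those of differently numbered libraries between -0.118 and 0.128. Replicate numbers thus showed no pairing in these values. With 3 libraries a group this cannot show whether same-numbered libraries share a culture or embryo. With a replicate block alone the members' medians were 0.247, -0.439 and -0.198 for GM versus PM, DM versus GM and DM versus PM. Calls in the same order were 26 higher and 8 lower, 3 and 33, and 9 and 22. All 14796 genes gave 4580 and 4957, 4431 and 4324, and 4849 and 4731. With 3 libraries a group, small differences may be missed.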
